A study of Drosophila melanogaster with 11 samples.

Results

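The very long genes of *Drosophila* were examined in newly made RNA from cells given double-stranded RNA against M1BP or insulator proteins. A gene was taken as very long when its annotated span in the count table reached 100000 bases. Of 17771 genes, 92 were that long, and 84 of them were kept as members. The others were 6 long noncoding RNAs and the hormone-response or homeotic genes *Antp* and *Eip75B*. The choice used length and gene name and no measured level. Nascent RNA was labeled for 1 h with 0.2 mM ethynyl uridine (EU), a clickable uridine analog, in Kc167 cells, an embryo-derived cell line labelled female, and the captured RNA was sequenced (neuRNA-seq). All groups were electroporated and harvested 5 d later: mock cells received no double-stranded RNA (4 libraries), *M1BP* knockdown cells 20 µg against *M1BP* (2 libraries), *mod(mdg4)* knockdown cells 5 µg against Mod(mdg4)67.2 (2 libraries), and the library labelled *Cp190* knockdown 12 µg against *Cp190* (1 library). The study calls its RNA-seq replicates biological, while the labels do not say whether same-group libraries came from separate transfections, and p-values measure the spread between these libraries.

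Long genes of the fly are mostly intron, and RNA polymerase needs well over an hour to cross the longest of them. Many encode cell-surface and signaling proteins of neurons and muscle, which have several promoters and isoforms. Others sit in the repeat-rich DNA next to the centromeres or on the Y chromosome, where introns have swollen with satellite and transposon sequence. M1BP is a zinc-finger protein that binds Motif 1, a core promoter element of constitutively active genes. CP190 and Mod(mdg4)67.2 are BTB-domain proteins of the *gypsy* chromatin insulator.

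Total counts were between 24944604 and 29680851 in the mock libraries and between 7462623 and 13181160 in the others. Members took 1.98 ± 0.0513% of counts in mock (SD, n = 4), 2.19% and 2.83% after *M1BP* knockdown, 2.52% and 2.28% after *mod(mdg4)* knockdown and 2.45% in the library labelled *Cp190* knockdown (95% Wilson interval 2.44% to 2.46%). *M1BP* itself measured 44.2, 45.2, 54.5 and 54.0 CPM (counts scaled to the TMM-adjusted library size, per 1000000) in mock and 21.5 and 31.8 CPM after its knockdown (log2 fold change −0.87, edgeR adjusted p = 0.0145). *Cp190* was 10.8-fold higher, not lower, in the library labelled *Cp190* knockdown. That library has no replicate, stood farthest from the others and got no test. The *mod(mdg4)* gene itself was not analysed here. Mock replicates 1 and 2 resembled each other, as did 3 and 4, more than libraries across these pairs. Of 18 hemocyte markers, 11 reached 1 CPM in mock, while *He*, *NimC1*, *NimC2*, *Sr-CI*, *eater*, *gcm* and *lz* did not. Neuron markers reached 1 CPM for 7 of 11 genes, glia markers for 4 of 8, muscle markers for 5 of 10, fat body and germline markers for 1 gene each. Summed hemocyte marker levels were 8558 to 10510 CPM in mock and lower after *M1BP* knockdown (7698 and 8528 CPM) and in the *Cp190*-labelled library (6771 CPM), while the *mod(mdg4)* libraries had 6548 and 8967 CPM. Summed neuron marker levels were 565 to 762 CPM in mock, 643 and 691 CPM after *M1BP* knockdown, 592 and 779 CPM after *mod(mdg4)* knockdown and 747 CPM in the *Cp190*-labelled library. Summed muscle marker levels were 28.0 to 31.7 CPM in mock, 31.4 and 42.1 CPM after *M1BP* knockdown, 33.9 and 35.6 CPM after *mod(mdg4)* knockdown and 60.7 CPM in the *Cp190*-labelled library. After *M1BP* knockdown glia markers summed to 481 and 494 CPM (mock 423 to 476), germline markers to 17.8 and 20.0 CPM (mock 27.2 to 30.2) and fat body markers to 0.371 and 11.1 CPM (mock 17.3 to 20.5). After *mod(mdg4)* knockdown glia markers summed to 399.7 and 400.3 CPM, germline markers to 28.6 and 33.5 CPM and fat body markers to 5.0 and 11.4 CPM. In the *Cp190*-labelled library these marker sums were 364, 33.4 and 13.7 CPM in that order. Their part in the results was not tested.

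The 84 members spanned 101201 to 1965857 bases, with a median of 133300. Of these, 83 matched the reference annotation by identifier, with identical coordinates, and all 83 were protein coding. FBgn0058178 had no symbol in the tables used. Exons covered a median of 7.05% of the span, from 0.332% in *Myo81F* to 65.8% in *Msp300*, and the longest intron had a median of 46380 bases. By position (beyond 22000000 on 2L or 23000000 on 3L, or before 5500000 on 2R or 4000000 on 3R, taken as pericentromeric), 64 members lay on a chromosome arm, 16 in the pericentromeric part of chromosome 2 or 3, and 4 on the Y chromosome. Counting took in the whole gene span, introns included, and left out reads that overlapped more than 1 gene on the same strand. Other genes were nested in 73 members (337 nested genes in all). The 4 members *rg*, *CG15465*, *CG46244* and *CG1677* were wholly covered by another gene on the same strand and had 0 counts in every library, which says nothing of their transcription. *Lar* could be counted on 14.1% of its length, *Ten-m* on 48.3% and *Ten-a* on 75.0%, so their levels per kilobase are lower limits. The remaining 80 members were tested in every comparison.

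Levels per kilobase differed 982-fold among these 80 genes. In mock the lowest was *Con* (0.0113 ± 0.00262 CPM per kb, SD, n = 4) and the highest *shep* (11.1 ± 2.19 CPM per kb). The median was 0.594 CPM per kb, against 7.75 CPM per kb for all genes tested with *M1BP* knockdown. Those are the 9511 of 17771 genes that passed a count filter, which a longer gene passes at a lower level per kilobase. The gap between these medians thus depends partly on the filter. For the members the coefficient of variation over the mock libraries had a median of 10.9%. The 5 strongest members held 36.6% of the members' mock CPM and the 10 strongest 58.0%. After *shep*, which encodes an RNA-binding protein, came *Mur2B*, a mucin-related gene (10.7 ± 0.984 CPM per kb), and *Snap25*, a SNARE of vesicle fusion (10.4 ± 0.999 CPM per kb). These 3 did not differ beyond their spread. A step lower and close together lay *fru* (7.85 ± 1.16 CPM per kb), *Fur1* (7.75 ± 0.220 CPM per kb), *mtgo* (7.64 ± 0.361 CPM per kb) and *sick* (6.81 ± 0.463 CPM per kb). They encode a zinc-finger transcription factor, a furin-type protease, a fibronectin type III protein and a neuron navigator homolog. *mamo*, *Svil* and *klar* closed the leading 10, at 5.81 ± 1.21, 5.37 ± 0.0674 and 4.12 ± 0.187 CPM per kb. Pericentromeric members had a median of 1.27 CPM per kb, arm members 0.648 CPM per kb and Y-linked members 0.0226 CPM per kb. Among the pericentromeric members the lowest levels were those of *Myo81F* (0.0338 ± 0.00327 CPM per kb), *Pzl* (0.0244 ± 0.00243 CPM per kb) and *DIP-lambda*, an immunoglobulin-superfamily gene (0.0748 CPM per kb). *Myo81F*, a myosin gene on chromosome 3R from 567076 to 2532932 (dm6), and *Pzl*, a Piezo-like gene on 3R from 2554162 to 3263582, were the longest members.

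**Figure D1:**
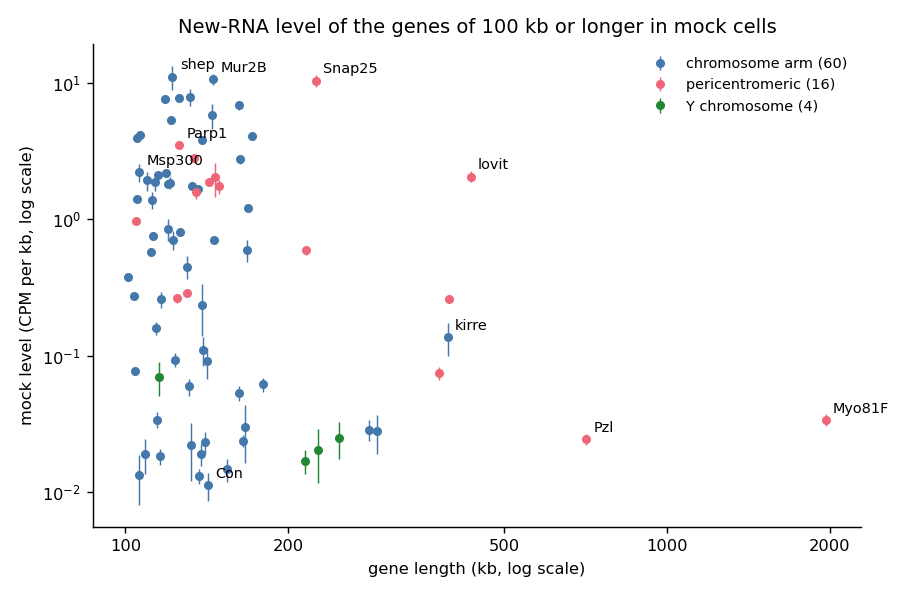
Mean mock level in CPM per kb (vertical, log scale) against gene length in kb (horizontal, log scale) for the 80 members with counts. Points are genes coloured by place, bars are 1 SD over 4 mock libraries. Levels span 0.0113 to 11.1 CPM per kb, and the pericentromeric genes lie on both sides of 1 CPM per kb.

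Motif 1 matches are shown because M1BP binds this element. The matches come from a shortened copy of the study's list, so only part of it was used here, and they fell in windows of 1000 bases on either side of the annotated start of 10 members. For 8 of the 10 the sequences are given, on the strand of the match. Each is 15 bases long, 5′ to 3′, and capitals mark bases identical to the consensus. Distances may be off by 1 base. The share of all promoters with such a match was not analysed here, nor were other members.
*pum* (chromosome 3R, start at 9237682, match centre 15 bases upstream): GCTgCGGTCACACTa
*Pde9* (X, start at 12897327, 36 bases upstream): tAgcCGGTCACACTG
*Pde9* (81 bases upstream): tgcACGGTCACACTG
*CG42340* (X, start at 6524323, 24 bases upstream): GAgctGGTCACACTG
*CG42340* (65 bases upstream): GCTggGGTgACACTG
*klar* (3L, start at 540614, 64 bases upstream): GAaAtGGTCACACTc
*sick* (2L, start at 19796365, 543 bases upstream): cgaACGGTCACACTG
*Msp300* (2L, start at 5100877, 603 bases upstream): tCagCGGTCACACTG
*heph* (3R, start at 32015520, 726 bases upstream): GCTgaGGTtACACTG
*heph* (610 bases downstream): GCagCGGgCACACTG
*fru* (3R, start at 18545586, 989 bases upstream): GATACGGcCtCAtTG
The matches of *pum*, *Pde9*, *CG42340* and *klar* lay within 100 bases upstream of the start. Of the matches without a sequence here, that of *Gprk1* was centred on the start and that of *tei* lay 427 bases downstream. After *M1BP* knockdown *klar*, a nuclear migration gene, and *sick* rose (log2 fold changes 0.53 and 0.84, edgeR adjusted p = 0.0179 and 0.0314). *pum*, a translational repressor, had a log2 fold change of 0.36 (adjusted p = 0.214). *Pde9*, a cyclic nucleotide phosphodiesterase, had −0.34 (adjusted p = 0.152) and *CG42340* 0.31 (adjusted p = 0.190). *Msp300* (0.51, adjusted p = 0.0866), *heph* (−0.07, adjusted p = 0.813) and *fru* (0.00, adjusted p = 0.986) did not pass either. The remaining pair with a match were *tei* (1.2, adjusted p = 0.00248), which rose, and *Gprk1* (0.16, adjusted p = 0.571). A match is a string of letters and not a binding site.

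After *M1BP* knockdown very long genes rose more often than they fell. Of 80 members tested, 33 were upregulated and 6 downregulated, which is 41.2% and 7.5%, against 16.5% and 11.5% of all 9511 genes. The median log2 fold change was 0.40 for members and −0.03 for all genes. Fewer cells making an RNA and less RNA per cell cannot be told apart in such bulk libraries. The upregulated share rose with length from 10.6% of genes under 2 kb and 11.9% of those of 2 to 10 kb to 31.5% at 10 to 30 kb and 50.4% at 30 to 100 kb, and the members lay between the last pair of classes. These shares are of genes that passed a count filter. It kept 3440 of 10009 genes under 2 kb and 4188 of 5733 at 2 to 10 kb. At 10 to 30 kb it kept 1223 of 1344 genes, at 30 to 100 kb 572 of 593, and 80 of 84 members. The part of the filter in this trend was not tested. Across the 9511 genes, log2 fold change and log10 length had r = 0.21. Within the 80 members r was 0.12. By place, 28 of 60 arm members were upregulated and 3 downregulated (median 0.53), and 3 and 3 of 16 pericentromeric members (median 0.10). Without *M1BP* replicate 3, which leaves 1 knockdown library, the pericentromeric median was −0.19, with 6 of 16 positive. Without *M1BP* replicate 2 it was 0.26, with 10 of 16 positive. The same fits against mock replicates 1 and 2 only gave 28 upregulated and 3 downregulated members, and against replicates 3 and 4 only 24 and 5.

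**Figure D2:**
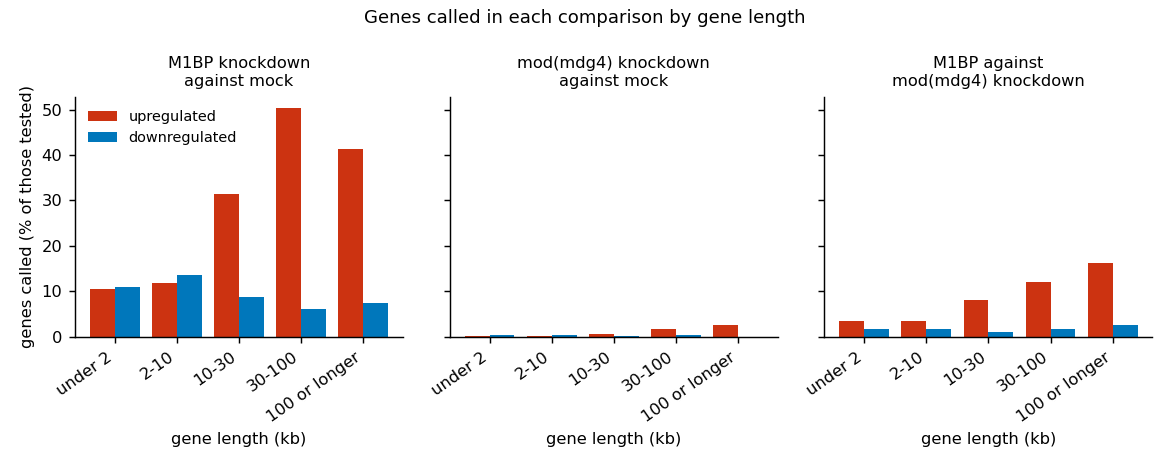
Percent of tested genes upregulated (red) or downregulated (blue) at an adjusted p below 0.05 (vertical) in 5 length classes in kb (horizontal), for the 3 tested comparisons. The members are the class of 100 kb or longer: 41.2% upregulated after *M1BP* knockdown and 16.2% in *M1BP* against *mod(mdg4)* knockdown.

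The largest log2 fold change among upregulated members was that of *CG42750* (chromosome 2L, 18159811 to 18275770). It measured 2.03, 1.80, 2.46 and 2.20 CPM in mock and 22.8 and 28.6 CPM after *M1BP* knockdown, with a wide gap between the groups. The log2 fold change was 3.62 ± 0.22 (SE, edgeR adjusted p = 3.03e-05). *SKIP* (3R, 22133830 to 22296126), which encodes a partner of the Shal potassium channel, lay at 7.74 to 10.2 CPM in mock and at 90.1 and 65.0 CPM after knockdown (3.19 ± 0.19, edgeR adjusted p = 2.89e-05). *Con*, the gene for the homophilic adhesion protein connectin, lay at 1.2 to 2.09 CPM in mock and at 17.6 and 10.9 CPM after knockdown (3.17 ± 0.31, edgeR adjusted p = 0.000262). In each of these genes every *M1BP* knockdown library was above every mock library. *RhoGEF64C* was better covered: 28.7, 30.7, 27.7 and 26.7 CPM in mock and 98.2 and 221 CPM after knockdown (2.52 ± 0.26, edgeR adjusted p = 0.000371). Its knockdown libraries differed widely from each other and both exceeded mock. *Gfrl*, related to receptors of glial-derived neurotrophic factor, *CG34353* and *CG32816* rose from 1.43 ± 0.571, 2.61 ± 0.479 and 2.27 ± 0.434 CPM (SD, n = 4) to 9.43 ± 3.23, 14.7 ± 4.43 and 11.2 ± 1.96 CPM (n = 2). *Myo81F* measured 57.6 to 72.2 CPM in mock and 391 and 170 CPM after knockdown (2.1 ± 0.26, edgeR adjusted p = 0.00096). Its neighbour *Pzl* rose as well (1.65 ± 0.21, edgeR adjusted p = 0.000987).

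Of the members with higher levels, *Fur1* lay at 940 to 997 CPM in mock and at 1824 and 3710 CPM after *M1BP* knockdown (log2 fold change 1.54 ± 0.23, edgeR adjusted p = 0.00248). *Lar*, a receptor tyrosine phosphatase of axon guidance, rose from 102 ± 3.27 to 347 ± 184 CPM (1.79, edgeR adjusted p = 0.00156), and *Ten-m*, a teneurin, from 241 ± 8.52 to 458 ± 60.2 CPM (0.95, edgeR adjusted p = 0.00126). *tei* rose from 102 ± 2.54 to 230 ± 81.3 CPM. In *Fur1*, *Lar* and *sick* the second knockdown library, replicate 3, was more than 2-fold above replicate 2. *mamo*, *sick*, *klar* and *Snap25* rose by 0.71, 0.84, 0.53 and 0.48 on the log2 scale (edgeR adjusted p = 0.0238, 0.0314, 0.0179 and 0.0398). These 4 calls were each lost when some single library was left out. Of the other leading members, *shep*, *Mur2B*, *fru*, *mtgo* and *Svil* did not pass, with log2 fold changes of 0.41, 0.24, 0.00, 0.25 and 0.31.

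The 6 downregulated members fell by less than 2-fold. *CG40470* had 216, 238, 384 and 351 CPM in mock and 133 and 176 CPM after *M1BP* knockdown (log2 fold change −0.92 ± 0.26, edgeR adjusted p = 0.0283). *Ptp99A*, another receptor tyrosine phosphatase of axon guidance, had 182, 182, 242 and 237 CPM in mock and 122 and 111 CPM after knockdown (−0.82 ± 0.17, edgeR adjusted p = 0.00844). *Glut4EF*, a transcription factor gene, fell from 222 ± 22.8 to 133 ± 9.30 CPM (−0.71, edgeR adjusted p = 0.00774). *AGO3*, an Argonaute of the piRNA pathway, fell from 212 ± 21.2 to 136 ± 2.26 CPM (−0.61, edgeR adjusted p = 0.0118). *Ir41a*, an ionotropic receptor gene, and *CG43658* fell by 0.49 and 0.47 on the log2 scale (edgeR adjusted p = 0.0214 and 0.0219). In all 6 both knockdown libraries lay below every mock library. *CG40470*, *Ptp99A*, *Glut4EF* and *AGO3* were lower in mock replicates 1 and 2 than in 3 and 4. Against mock replicates 1 and 2 only, or without mock replicate 4, 3 members were downregulated in all. *CG40470*, *CG43658* and *Ir41a* lost their calls when some single library was left out, and 0 members were downregulated in a fit blocked on replicate numbers.

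**Figure D3:**
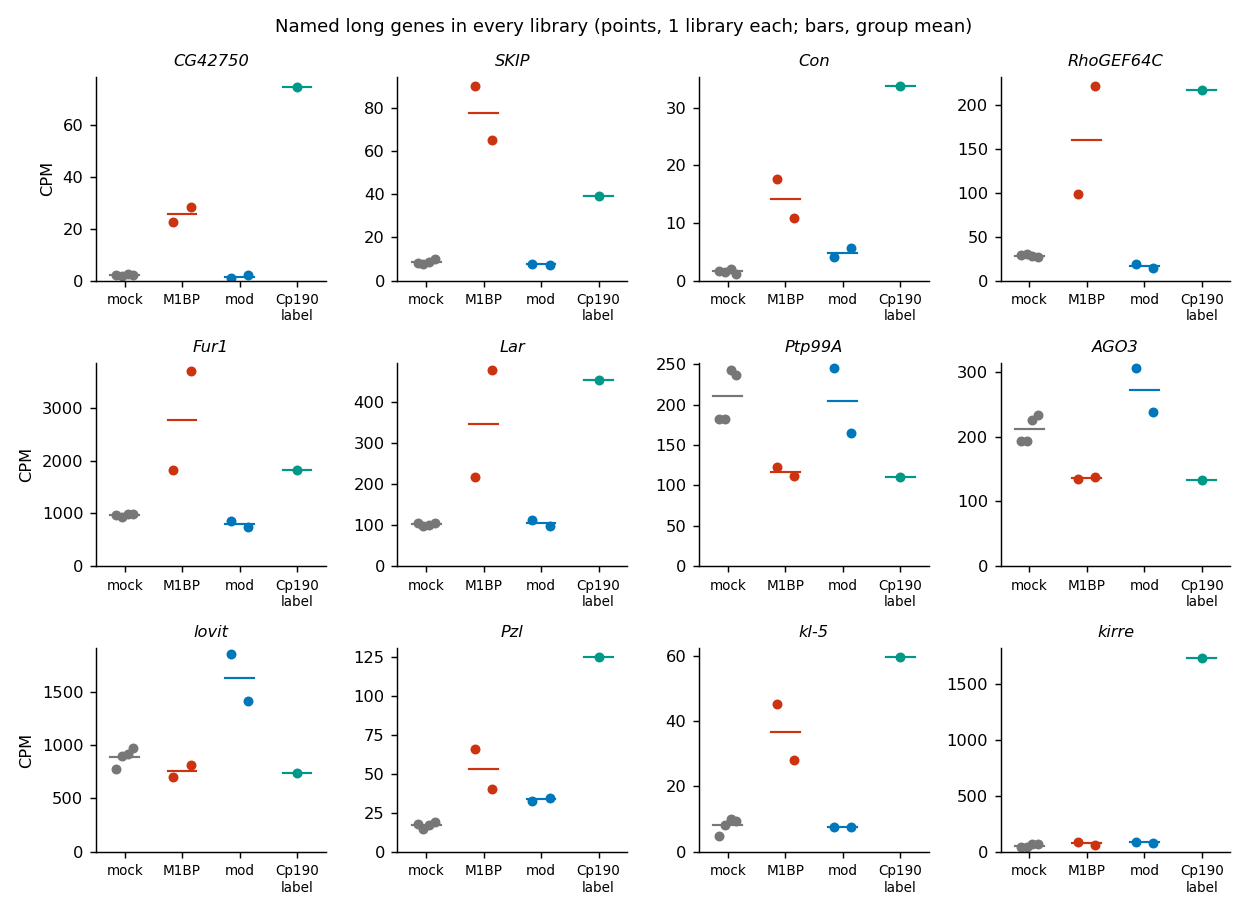
CPM (vertical, from 0) of 12 members in each library, grouped by treatment (horizontal): points are libraries and bars are group means. *CG42750*, *SKIP*, *Con*, *RhoGEF64C*, *Fur1* and *Lar* stand above mock in both *M1BP* knockdown libraries, *Ptp99A* and *AGO3* below, *lovit* and *Pzl* above mock in both *mod(mdg4)* knockdown libraries, and *kirre* far above mock in the *Cp190*-labelled library.

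Of the 33 upregulated members, 22 had little RNA. In a split chosen after the data were seen, levels per kilobase over all 9 libraries were set against the Y-linked members, the highest of which, *kl-5*, had 0.174 CPM per kb. That mean includes the knockdown libraries whose changes are read here, so the split and the changes are not independent. In mock *kl-5* had 0.0700 CPM per kb. *kirre* (0.137) and *sm* (0.158) lay below 0.174 CPM per kb in mock and above it in the mean. At or below 0.174 CPM per kb in the mean were 28 members, 24 of them not Y-linked. Of the 28, 22 were upregulated after *M1BP* knockdown and 0 downregulated, with a median log2 fold change of 1.69. By edgeR none of the 28 was lower at an unadjusted p below 0.05 either, and DESeq2 also called 22 up and 0 down. Of the 52 members above it, 11 were upregulated (21.2%) and 6 downregulated (11.5%), with a median of 0.17. Without *M1BP* replicate 3, which leaves 1 knockdown library, these 52 had a median of −0.03, with 25 positive. Without *M1BP* replicate 2 their median was 0.29, with 37 positive. Upregulated members among them numbered 6 without mock replicate 1, 2 or 4, and the replicate block left 5 up and 0 down. Other genes of at least 30 kb had 163 of 237 upregulated at the low level and 131 of 343 above it. Other genes of any length had 500 of 936 upregulated at the low level (median 1.98) and 1041 of 8495 above it (median −0.09). The rise at the low level was thus not particular to very long genes. Over the 80 members, log2 fold change and log10 mean level over the 9 libraries had r = −0.49, with the *M1BP* knockdown libraries in both quantities. This is a description across genes, which share their libraries.

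Of the 4 Y-linked members 2 were upregulated. *Ppr-Y* measured 4.09 to 8.31 CPM in mock and 40.7 and 23.0 CPM after *M1BP* knockdown (log2 fold change 2.39, edgeR adjusted p = 0.00117). *kl-5*, an axonemal dynein heavy chain gene, lay at 4.90 to 9.90 CPM in mock and at 45.2 and 28.0 CPM after knockdown (2.21, edgeR adjusted p = 0.00126). *kl-3*, another dynein gene, and *WDY* overlapped with mock (−0.26 and 0.04). These are male germline genes, counted here in cells labelled female. Whether the reads assigned to them came from a Y chromosome was not tested. The summed level of the 4 Y-linked members was 0.0180 to 0.0343 CPM per kb in mock, 0.112 and 0.0764 after *M1BP* knockdown, 0.0392 and 0.0305 after *mod(mdg4)* knockdown and 0.196 in the library labelled *Cp190* knockdown. That of the other 24 low members was 0.0323 to 0.0421 CPM per kb in mock, 0.152 and 0.0966, then 0.0466 and 0.0611, and 0.235 in the same order. The 52 higher members had 2.42 to 2.74 CPM per kb in mock, 2.94 and 3.78, 3.15 and 2.53, and 2.96. The part of a background common to quiet genes in these rises was not tested.

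**Figure D4:**
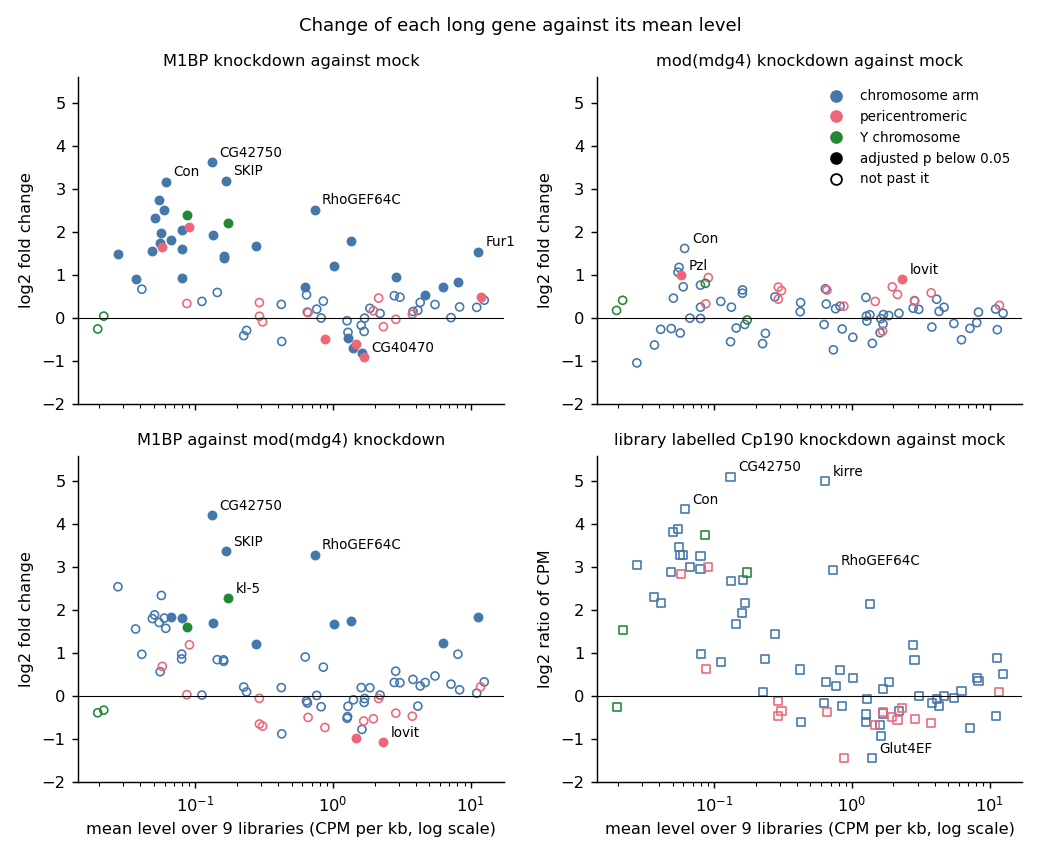
Log2 fold change, or log2 ratio for the library labelled *Cp190* knockdown (vertical), of 80 members against their mean level over 9 libraries in CPM per kb (horizontal, log scale). Filled points passed an adjusted p below 0.05, squares have no test. Except in *mod(mdg4)* against mock, most of the highest points lie at the low end of the level axis, where the median after *M1BP* knockdown was 1.69.

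**Figure D5:**
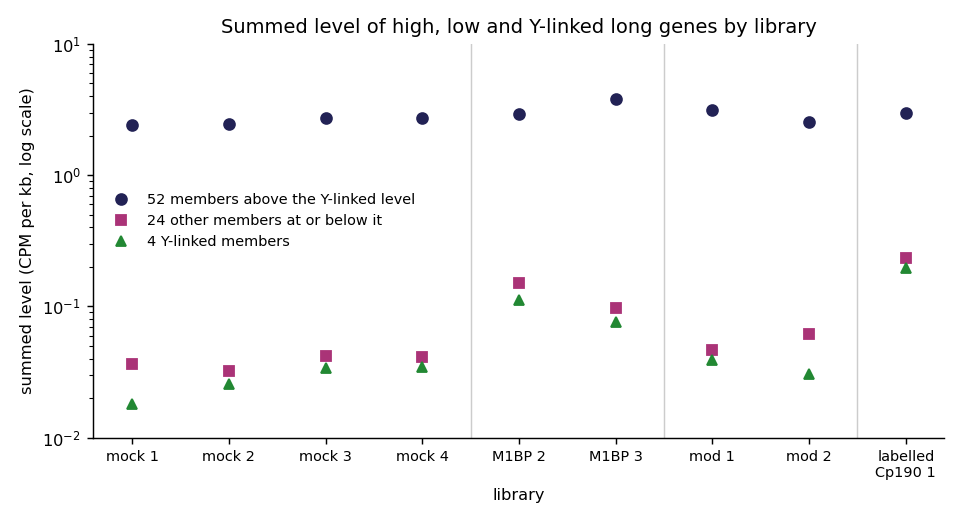
Summed CPM per kb (vertical, log scale) of the 52 higher members, the 24 low members outside the Y chromosome and the 4 Y-linked members in each of the 9 libraries (horizontal). The low and Y-linked sums are highest in the library labelled *Cp190* knockdown (0.235 and 0.196 CPM per kb), while the higher members stay between 2.42 and 3.78 CPM per kb.

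After *mod(mdg4)* knockdown few members passed the test. Of 80 members, 2 were upregulated and 0 downregulated by edgeR, against 0.32% and 0.408% of 9066 genes, and at an unadjusted p below 0.05 21 were higher and 8 lower. The median log2 fold change was 0.20 for members and 0.00 for all genes. *lovit*, a gene of photoreceptor synaptic transmission on chromosome 3L from 25236940 to 25670980, had 774, 898, 917 and 972 CPM in mock and 1851 and 1410 CPM after knockdown (log2 fold change 0.89 ± 0.15, edgeR adjusted p = 0.0446). *Pzl* had 14.9 to 19.1 CPM in mock and 32.8 and 34.5 CPM after knockdown (0.98 ± 0.16, edgeR adjusted p = 0.0458). Neither group overlapped with mock. Both calls were lost without any one of the mock libraries, and DESeq2 called 15 members up and 3 down. Without *mod(mdg4)* replicate 1, which leaves 1 knockdown library assumed to vary like mock, 10 were upregulated and 3 downregulated, with a median of 0.03.

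Both upregulated genes are pericentromeric. Of the 16 pericentromeric members, 15 had a positive log2 fold change, with a median of 0.56, and 14 lay above every mock library in both *mod(mdg4)* knockdown libraries. Over all members 26 lay above and 9 below, and over all genes 13.3% and 17.7%. Of 60 arm members 11 lay above (18.3%), with a median of 0.07, and of 136 other pericentromeric genes 50 (36.8%), with a median of 0.29. In every one of 18 alternative fits 15 or 16 of the 16 were positive, with medians from 0.47 to 0.68. Singly, 14 of the 16 did not pass by the edgeR adjusted p. At an unadjusted edgeR p below 0.05, 13 were higher and 0 lower, and DESeq2 called 11 up and 0 down. *Parp1*, a poly(ADP-ribose) polymerase gene, had 406 to 477 CPM in mock and 690 and 604 CPM after knockdown (0.58, edgeR adjusted p = 0.0674). *Gprk1*, a G protein-coupled receptor kinase gene, had 232 to 301 CPM in mock and 415 and 423 CPM after knockdown (0.72, edgeR adjusted p = 0.0598). *Dbp80*, a DEAD-box helicase gene, had 244 to 288 CPM in mock and 392 and 379 CPM after knockdown (0.54, edgeR adjusted p = 0.0723). *Myo81F* and FBgn0058178 had log2 fold changes of 0.93 and 0.64 (edgeR adjusted p = 0.0731 and 0.0586). The pericentromeric members took 0.533% to 0.592% of all counts in mock and 0.864% and 0.795% after *mod(mdg4)* knockdown. Among arm members *Con* had the largest value (1.61, edgeR adjusted p = 0.0788) and *dpy*, a giant matrix protein gene with 1.59 to 2.1 CPM in mock and 0.986 and 0.698 CPM after knockdown, the lowest (−1.05, edgeR adjusted p = 0.240).

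Set directly against each other, without mock, the 2 knockdowns differed in 15 members. After *M1BP* knockdown 13 were higher and 2 lower than after *mod(mdg4)* knockdown, against 4.84% and 1.68% of 8757 genes. With library size only as the scaling the split was 8 and 5, and with DESeq2 size factors 13 and 0. The median was 0.30 for members and −0.02 for all genes. *CG42750* was at 22.8 and 28.6 CPM against 0.904 and 1.98 CPM (log2 fold change 4.21, edgeR adjusted p = 0.00045), *SKIP* at 90.1 and 65.0 against 7.89 and 7.44 CPM (3.37, edgeR adjusted p = 6.44e-05). *RhoGEF64C* was at 98.2 and 221 against 19.1 and 14.3 CPM (3.29, edgeR adjusted p = 0.000153), *kl-5* at 45.2 and 28.0 against 7.64 and 7.67 CPM (2.29, edgeR adjusted p = 0.0039), and *Fur1* at 1824 and 3710 against 849 and 734 CPM (1.84, edgeR adjusted p = 0.00612). *CG42750*, *RhoGEF64C*, *SKIP*, *kl-5* and *tei* were called in all 12 alternative fits. The others higher after *M1BP* knockdown were *bru3*, *shakB*, *Lar*, *CadN*, *Ppr-Y*, *mamo* and *sm*. *lovit* (701 and 811 against 1851 and 1410 CPM, −1.07, edgeR adjusted p = 0.04) and *AGO3* (134 and 137 against 306 and 238 CPM, −0.97, edgeR adjusted p = 0.0361) were lower, and both calls were lost without *mod(mdg4)* replicate 1 or either *M1BP* library. By library ranges 38 members lay above and 14 below, against 25.0% and 28.1% of all genes. Of the 16 pericentromeric members 10 lay below and 2 above, and 12 had a negative log2 fold change (median −0.48). Of the 60 arm members 34 lay above and 4 below, with a median of 0.52.

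In the library labelled *Cp190* knockdown, 29 of 80 members lay above every mock library and at least 2-fold above their mean, and 2 lay below by as much. Over all 10180 genes compared the shares were 24.7% and 21.1%, against 36.2% and 2.5% of members. They were 34.8% and 12.5% at 10 to 30 kb and 50.9% and 4.86% at 30 to 100 kb. By range alone 45 members were above and 26 below, against 38.9% and 45.4% of all genes. All values of this library are without a replicate check, and its log2 ratios were taken after adding 0.05 CPM to the level and to the mock mean. Of the 28 low members 27 lay above every mock library, with a median log2 ratio of 2.89. By the 2-fold rule 24 of the 28 were higher, as were 223 of 241 other genes of at least 30 kb at the low level. Of 1173 other genes of any length at that level 855 were higher and 242 lower by this rule. The mean that set the level split includes this library. The 52 higher members had a median of −0.08, and 11 of the 16 pericentromeric members lay below the mock range. *CG42750* measured 74.8 CPM against a mock mean of 2.12 CPM, and *Con* 33.7 CPM against 1.6 CPM. Among members with at least 100 counts in every mock library, the highest ratios were those of *kirre*, *Ppr-Y*, *bru3*, *Myo81F* and *RhoGEF64C* (log2 5.00, 3.75, 3.0, 3.0 and 2.93). *RhoGEF64C* measured 217 CPM and *Myo81F* 532 CPM. The lowest were *Glut4EF* (81.8 CPM, log2 ratio −1.44), *Ir41a* (37.4 CPM, −1.43), *Ptp99A* (111 CPM, −0.93), *fru* (616 CPM, −0.74) and *AGO3* (133 CPM, −0.68).

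*kirre* encodes an immunoglobulin-superfamily adhesion protein of myoblast fusion and lies on the plus strand of the X chromosome from 2740384 to 3134532. It had 1110, 1164, 1840 and 1655 counts in mock, or 42.5, 40.2, 67.5 and 66.1 CPM. After *M1BP* knockdown it had 88.99 and 64.7 CPM (log2 fold change 0.53, edgeR adjusted p = 0.140) and after *mod(mdg4)* knockdown 91.3 and 78.6 CPM (0.67, edgeR adjusted p = 0.167). The library labelled *Cp190* knockdown had 16603 counts, or 1738 CPM, 32.1-fold above the mock mean. Of the genes inside its span, *w*, the eye pigment transporter gene on the minus strand from 2790599 to 2796466, had 1.07 to 2.0 CPM in mock and 1442 CPM in that library. *w* had 37.9 and 15.03 CPM after *M1BP* knockdown (4.18, edgeR adjusted p = 0.000182) and 9.70 and 6.28 CPM after *mod(mdg4)* knockdown (log2 fold change 2.44, edgeR adjusted p = 0.033). Its neighbour on the same strand, *CG32795*, had 2.30 to 3.23 CPM in mock and 299 CPM in that library, and rose after *M1BP* knockdown (1.06, edgeR adjusted p = 0.0247). Whether the *kirre* counts are RNA of *kirre* or of something else in its span was not tested.

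By role, adhesion and axon guidance genes formed the largest group with 12 members, and 6 of them (*Con*, *CadN*, *Lar*, *Ten-m*, *dpr6* and *dpr8*) were upregulated and 1 (*Ptp99A*) downregulated after *M1BP* knockdown. Their median log2 fold change was 0.79. In the 107 shorter genes of that list tested, 64 were upregulated and 5 downregulated (median 1.63). *CadN*, the neural cadherin, rose from 7.80 ± 1.10 to 29.1 ± 5.24 CPM (1.93, edgeR adjusted p = 0.000401). *Sema1a*, a repulsive guidance protein gene, went the other way without passing (−0.55, edgeR adjusted p = 0.0708). Of 9 RNA-binding members 3 rose: *bru3*, *Rbp6* and *sm* (1.81, 0.94 and 1.66). *pum*, *heph*, *mbl*, *shep*, *bru1* and *Rbfox1* did not pass. Of the 47 shorter genes of that list 5 rose and 1 fell. Of the 4 members in the transcription factor list *hth*, a homeodomain protein gene (1.98), and *mamo* rose, while *fru* and *luna* did not pass. The channel genes *shakB*, an innexin (2.04), and *Sh*, a potassium channel (0.59, edgeR adjusted p = 0.142), included 1 that passed, *shakB*, and of 6 kinase and second messenger members *Pde1c* (1.6) rose. Of the 5 members placed in the cytoskeleton and polarity list *RhoGEF64C* rose, and *Dys*, *pyd* and *Msp300* did not pass. The list also held *mgl* (1.39), which rose but encodes an endocytic receptor. Of the 185 shorter genes tested in the transcription factor list 67 rose and 22 fell. In the channel list 52 of 111 shorter genes rose and 8 fell. For the kinase list 26 of 119 rose and 6 fell, and for the cytoskeleton list 31 of 121 rose and 12 fell. So few members per list do not set them apart from these shares. The single member placed in the matrix and secreted signal list, *kek5*, a transmembrane protein gene, had a log2 fold change of 0.10 (edgeR adjusted p = 0.689). The matrix protein gene *dpy* was in no list and rose (1.47, edgeR adjusted p = 0.0221). The calls of *dpy*, *dpr6*, *hth* and *shakB* were each lost when some single library was left out. The 44 members in no list had 18 up and 5 down of 41 tested. These 5 include *Glut4EF*, *AGO3* and *Ir41a*, whose roles named above lie close to listed ones, so the counts by role are not complete. After *mod(mdg4)* knockdown 0 members of a role list passed by edgeR (9 up and 2 down at an unadjusted p below 0.05, 6 up and 1 down by DESeq2), while in *M1BP* against *mod(mdg4)* knockdown 7 were higher: 2 adhesion genes, 2 RNA-binding genes and 1 each of the channels (*shakB*), transcription factors (*mamo*) and cytoskeleton genes (*RhoGEF64C*).

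Just inside the length limit lay *CG42340* (101201 bases), *RhoGEF64C* (103471) and *Cph* (104210), with log2 fold changes after *M1BP* knockdown of 0.31, 2.52 and 1.44. Just outside lay *CG45002* (97664 bases), *CG43759* (98295) and *cpo* (99061), with 2.81, 1.82 and −0.39. Of the 8 long genes left out by name, 6 were upregulated after *M1BP* knockdown and 1 after *mod(mdg4)* knockdown.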

How the data were processed

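Counts per gene were deposited by the authors, who trimmed reads with cutadapt 2.7, aligned them with HISAT2 2.1.0 (SAMtools 1.9) to the dm6 genome and counted whole gene spans on the sense strand with featureCounts 1.6.4, and tested with DESeq2 1.22.1. Of 11 count columns 9 were used. The 2 not used are headed alike, as replicate 2 of the *Cp190* knockdown, but hold differing values, and no column is headed with *M1BP* knockdown replicate 1, so that neither sample was analysed here. Here edgeR 4.0.16 in R 4.3.3 (quasi-likelihood test, TMM, filterByExpr, Benjamini-Hochberg adjusted p below 0.05, two-sided) compared each knockdown with mock and the knockdowns with each other, each fit holding only its 2 groups, with DESeq2 1.42.0 as an alternative. Standard errors come from the fold change and its F. The fit was tested on simulated data. A count of 3 is 0.101 to 0.402 CPM, and intervals cover counting error only. Members and lists were chosen with earlier results of these data known. Named members are the 3 longest, the 10 strongest in mock, up to 10 each way after *M1BP* knockdown, up to 5 each way in the other comparisons and in the library labelled *Cp190* knockdown (at least 100 counts in every mock library), the 3 on either side of the length limit, and the targeted genes. Others were taken up after their values were seen. The main fits did not pair libraries by replicate number. Whether the numbers mark pairs could not be judged from so few libraries.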

Additional observations from a re-analysis of the deposited data

Results flagged for a closer look

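*bru3*, a Bruno-family RNA-binding gene, had 5.95 CPM in mock replicate 2 and 8.67 to 9.03 CPM in the other mock libraries. It was the 1 library far from its group among 36 values checked, and chance gives about 1 in 20.

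In 15 members the effects of the 2 knockdowns differed by the direct test between them (edgeR, adjusted p below 0.05). The log2 differences of *M1BP* against *mod(mdg4)* knockdown were −1.07 for *lovit*, −0.97 for *AGO3*, 1.21 for *sm*, 1.25 for *mamo*, 1.62 for *Ppr-Y*, 1.68 for *tei* and 1.71 for *CadN*. They were 1.75 for *Lar*, 1.81 for *shakB*, 1.84 for *bru3*, 1.84 for *Fur1*, 2.29 for *kl-5*, 3.29 for *RhoGEF64C*, 3.37 for *SKIP* and 4.21 for *CG42750*.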

How the results depend on the processing

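After *M1BP* knockdown 20 of the 33 upregulated members and 0 of the 6 downregulated ones were called in all 18 alternatives. Upregulated members numbered 26 to 32 with 1 library left out, 57 with a minimum length of 80000 and 11 among members above the Y-linked level, with medians of 0.54 and 0.17, and 1.69 for the low members. Downregulated members numbered 3 to 7 with 1 library left out, 3 against mock replicates 1 and 2 or with a minimum length of 120000, 2 at an adjusted p below 0.01, and 0 at an absolute log2 fold change of at least 1 or among low members.

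After *mod(mdg4)* knockdown 0 to 10 members were upregulated and 0 to 3 downregulated with 1 library left out. Without *mod(mdg4)* replicate 1 there were 10 and 3, and over these fits the median ran from 0.033 to 0.238. DESeq2 called 15 and 3. Upregulated members numbered 1 with size factors, TMM on short genes, or members above or below the level split, 6 with library size (median 0.32), and 0 with all libraries in one model, either mock pair, an adjusted p below 0.01 or an absolute log2 fold change of at least 1.

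In *M1BP* against *mod(mdg4)* knockdown the higher and lower counts were 25 and 6 with all libraries in one model, 8 and 5 with library size (median 0.064), and 7 and 0 at an adjusted p below 0.01. The lower count was 0 with size factors, TMM on short genes or low members, 1 at an absolute log2 fold change of at least 1, and 0 to 3 with 1 library left out, where the median ran from 0.15 to 0.50. Higher counts were 6 above the level split (median 0.047) and 7 below it (1.57). Library size alone moved the median of all genes by −0.25 here and by 0.12 after *mod(mdg4)* knockdown. With it the calls over all genes were 253 higher and 261 lower here, in place of 424 and 147, and 51 and 28 after *mod(mdg4)* knockdown, in place of 29 and 37. The cause of these shifts was not tested.

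In the library labelled *Cp190* knockdown the median of 0.38 became 0.53 with size factors, 0.58 with upper-quartile scaling, −0.081 above the level split and 2.89 below it. *fru*, at 0.00 after *M1BP* knockdown, took −0.023 with all libraries in one model, −0.016 with either block, −0.085 with library size, −0.171 against mock replicates 3 and 4, −0.042 without a filter and −0.069 to 0.090 with 1 library left out.

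The replicate numbers are shared by label only. Same-numbered libraries had a correlation of deviations of −0.23 for *M1BP* and −0.08 for *mod(mdg4)* knockdown. With the replicate block 22 members were upregulated and 0 downregulated after *M1BP* knockdown, and 3 upregulated after *mod(mdg4)* knockdown. With the numbers crossed, chosen after the data were seen, 27 were upregulated and 4 downregulated after *M1BP* knockdown, and 6 upregulated after *mod(mdg4)* knockdown.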
